A study of Mus with 18 samples.

Results

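The comparison described here is LPS + CA against LPS, that is, caffeic acid (CA) given together with lipopolysaccharide (LPS) set against LPS alone, in RAW264.7 cells. It uses 6 of the 18 libraries of the series, the 3 labelled LPS and the 3 labelled LPS + caffeic acid, chosen by those labels and by the matching column names of the count table. RAW264.7 is a mouse macrophage-like cell line, and the material was total RNA taken after 6 h. The LPS cells received LPS at 1 µg/mL and no compound. The LPS + CA cells received the same LPS together with caffeic acid at 100 µM. The other groups, each of 3 libraries, were untreated control cells and cells given LPS with 100 µM of chlorogenic acid (CGA) or of the cysteine adduct of either acid (CACys for that of caffeic acid). No group received caffeic acid without LPS, so an effect on the response to LPS and an effect that caffeic acid has by itself cannot be told apart. The labels do not say whether the replicates were separate cultures. Unless stated otherwise, p-values here measure only the spread between libraries within groups, and that spread was estimated from all 18 libraries.

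LPS, a component of the outer membrane of Gram-negative bacteria, is bound by the TLR4 receptor complex of macrophages. One arm of signalling, through MyD88, leads to NF-kB and to genes of cytokines and chemokines, and another, through TRIF, leads to interferon beta, which acts back on the cells through JAK and STAT proteins and turns on interferon-stimulated genes. Caffeic acid is a plant hydroxycinnamic acid with a catechol ring, and catechols can be oxidised to quinones that react with thiols. NRF2, encoded by Nfe2l2, is held at low levels by KEAP1, whose cysteine thiols sense such electrophiles, and it turns on genes of glutathione synthesis, quinone detoxification, NADPH supply and heme breakdown.

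Library totals ran from 18579427 to 18903406 counts with LPS and from 18709510 to 24690570 counts with LPS + CA. Replicate 2 of LPS + CA stood apart before any comparison was made. Ribosomal protein genes made up 5.273% of its total, against 4.448% and 4.454% in LPS + CA replicates 1 and 3 and 4.321% to 4.461% in the LPS libraries. Its limma-voom quality weight of 0.155 was the lowest of all 18 libraries, against 2.376 and 0.574 for LPS + CA replicates 1 and 3 and 0.817 to 1.741 for the LPS libraries. Among 10189 genes averaging 50 counts or more, 308 lay more than 0.5 on the log2 scale from the mean of its fellow replicates, against 56 to 157 in the other 5 libraries. Its ribosomal protein genes were higher by a median log2 of 0.26 than in its fellows, its proteasome genes by 0.23 and its NRF2 pathway genes by 0.10, and its interferon-stimulated genes stood at -0.11. The LPS libraries differed among themselves in interferon-stimulated genes, with a median log2 of 0.26 in replicate 2 and -0.25 in replicate 3 against their fellows. Counts of most lists are therefore given with and without LPS + CA replicate 2. The part of this library's other differences in a result was not tested beyond that. All 8 macrophage markers had counts, with summed levels of 4003 to 4146 CPM (read counts scaled to library size by trimmed mean of M values factors) with LPS and 3537 to 3709 CPM with LPS + CA. The 5 erythroid markers were at 0 in all 6 libraries.

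**Figure D1:**
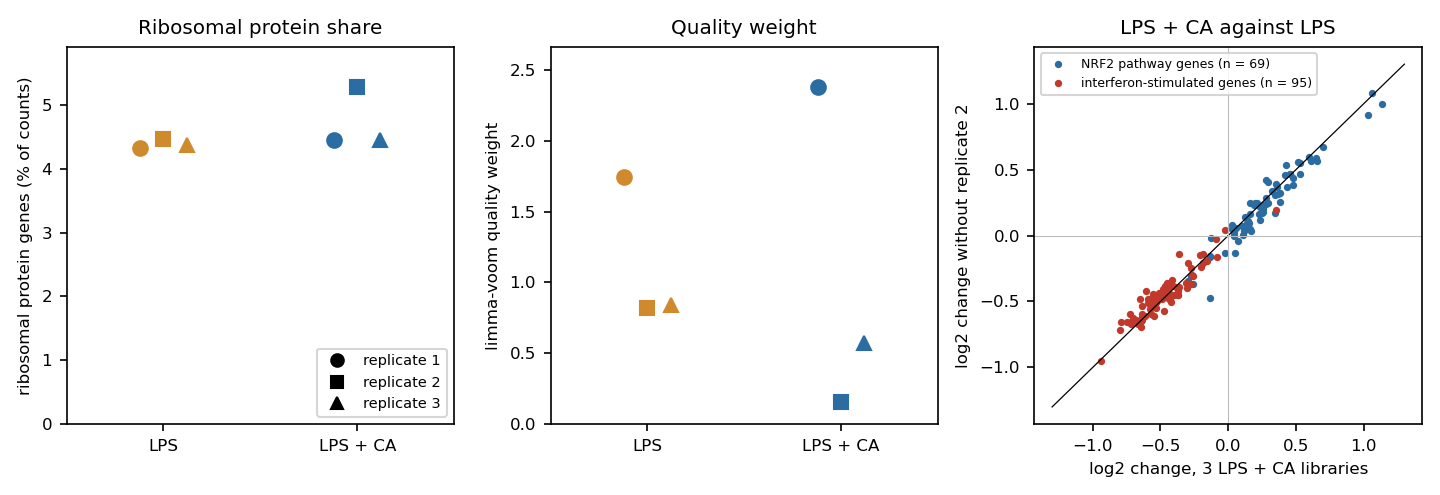
Left and middle, the share of counts in ribosomal protein genes (%) and the limma-voom quality weight of each library (circle, square and triangle for replicates 1, 2 and 3), where LPS + CA replicate 2 has the highest share at 5.273% and the lowest weight at 0.155. Right, the log2 change of LPS + CA against LPS from the model of all 18 libraries (horizontal) and without that replicate (vertical). Points are 69 NRF2 pathway genes and 95 interferon-stimulated genes, with the line of equal values, along which both lists lie.

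With caffeic acid, 78 of 95 interferon-stimulated genes, 14 of 27 scavenger, Fc, sialic acid and lectin receptor genes and 8 of 20 chemokine genes were lower, and 36 of 69 genes of the NRF2 pathway were higher. Of 13251 genes tested with edgeR's quasi-likelihood test, 1023 (7.72%) were called at a Benjamini-Hochberg adjusted p of 0.05, 305 of them higher (2.3%) and 718 lower (5.42%). The changes were small, since 30 of the 1023 called genes moved by 2-fold or more, and the median log2 change of all tested genes was 0.01. Levels of the groups did not overlap for 2666 genes (20.1%), with caffeic acid higher for 1223 (9.23%) and lower for 1443 (10.9%). Without LPS + CA replicate 2 the test called 882 genes, 288 higher and 594 lower. Of these, 691 were called in the same direction with that library kept. Leaving out LPS replicate 1 gave 642 calls and leaving out LPS replicate 2 gave 541. A model fitted to these 6 libraries alone gave 434, and limma-voom with quality weights, which gives LPS + CA replicate 2 little weight, called 1696. For scale, LPS alone against control called 8243 genes (62.2%), 30.6% of all higher and 31.6% lower; it shares the LPS libraries with the comparison made here, so control levels are given only side by side.

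**Figure D2:**
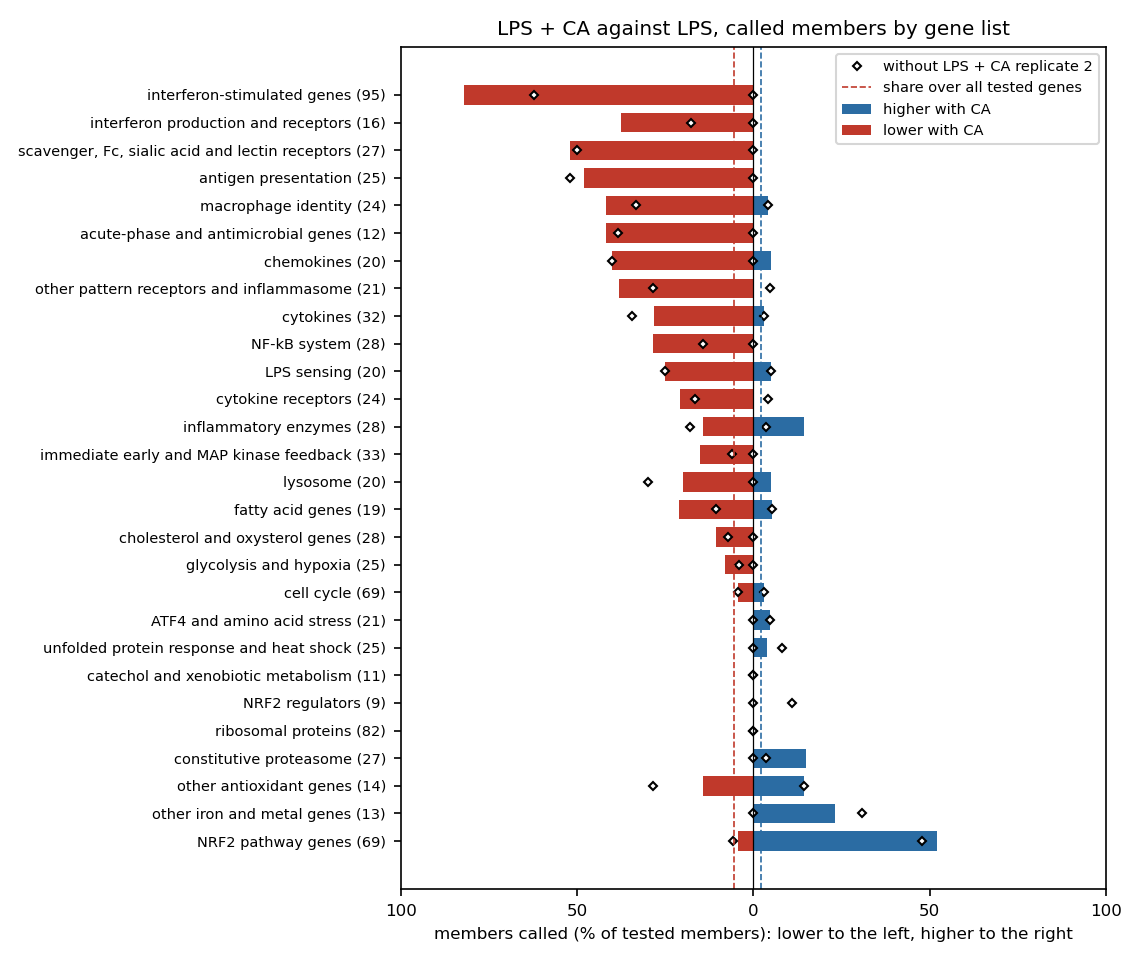
Share of the tested members (number in brackets) of 28 gene lists called lower (red, to the left) or higher (blue, to the right) with caffeic acid, by edgeR at an adjusted p of 0.05. Open diamonds give the share without LPS + CA replicate 2 and dashed lines the shares over all tested genes (5.42% and 2.3%): interferon-stimulated genes, with 78 of 95 lower, and NRF2 pathway genes, with 36 of 69 higher, reach farthest to either side.

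Interferon-stimulated genes were lower together. Of 95 members tested, 78 were called lower and 0 higher, with a median log2 change of -0.50 beside 0.01 for all tested genes, and 94 of the 95 had a change below 0. All 95 listed genes passed the filter on low counts, and with LPS alone 92 of them were called higher than in control. The count of lower members was 59 without LPS + CA replicate 2, and it was 51 without LPS replicate 2, the LPS library in which these genes stood highest. By role, 15 of 17 antiviral effectors, 6 of 8 oligoadenylate synthetases, 9 of 11 nucleic acid sensors, 13 of 15 GTPases, 6 of 8 transcription and signalling factors and 29 of 36 others, among them PARP, TRIM and HERC genes, were called lower. In the same order, the counts without LPS + CA replicate 2 were 13, 7, 6, 8, 6 and 19.

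Irf7 encodes the transcription factor that widens the interferon response (ENSMUSG00000025498, chromosome 7, 141263183 to 141266499, GRCm38.p6). In replicates 1, 2 and 3 it read 497, 594 and 435 CPM with LPS and 331, 328 and 336 CPM with LPS + CA, against 13.4 ± 1.19 CPM (mean ± SD, n = 3) in control. The 3 caffeic acid libraries lay close together and all below the LPS libraries, of which replicate 2 was highest. The log2 change was -0.62 (SE 0.10, edgeR adjusted p = 0.00166), and -0.61 without LPS + CA replicate 2 (edgeR adjusted p = 0.0148). Mx1, the antiviral dynamin-like gene that RefSeq lists as a transcribed pseudogene, stood at 112, 133 and 100.0 CPM with LPS and 72.5, 64.3 and 73.5 CPM with LPS + CA, and fell by a log2 of 0.72 (SE 0.12). Trim30d, of the tripartite motif family, read 13.5, 14.7 and 10.9 CPM and 7.76, 6.87 and 8.80 CPM and fell by 0.75 (SE 0.14, edgeR adjusted p = 0.000623). For both genes every caffeic acid library was below every LPS library, and LPS + CA replicate 2 was the lowest of the 6. Ifit1bl1, which shares sequence with its neighbour Ifit1 so that the split of reads between them is uncertain, fell by 0.80 (SE 0.15).

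Ifit1, whose protein binds foreign RNA, was at 491, 554 and 418 CPM with LPS and 304, 344 and 362 CPM with LPS + CA. These groups did not overlap and the log2 change was -0.53 (SE 0.13, edgeR adjusted p = 0.0206). The Ifit1 call was lost when any 1 of 4 libraries was left out, edgeR's adjusted p being 0.069 and 0.101 without LPS replicate 1 or 2 and 0.0779 and 0.0534 without LPS + CA replicate 1 or 2, at log2 changes of -0.43 to -0.55. Slfn9, a Schlafen gene close in sequence to Slfn8, and Ms4a4c, of the membrane-spanning 4A family, fell by 0.72 and 0.94 on the log2 scale. Without LPS replicate 2 edgeR's adjusted p was 0.0569 for Slfn9 and 0.0651 for Ms4a4c, and for Ms4a4c it was 0.053 without LPS + CA replicate 1. Tnfsf10, which encodes the death ligand TRAIL, fell by 0.79 (SE 0.17), with an edgeR adjusted p of 0.0658 without LPS + CA replicate 2. The only member with a change above 0 was Gbp8, a guanylate-binding protein gene, at 0.35 (edgeR adjusted p = 0.597), chosen here after its value was seen.

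Upstream of these genes, Ifnb1, the interferon beta gene, was near the limit of detection, at 0.166, 0.670 and 0.485 CPM with LPS and 0.0476, 0.699 and 0.107 CPM with LPS + CA. Its libraries overlapped, and the log2 change of -0.52 had a 95% interval of -1.83 to 0.79. Without LPS + CA replicate 2, whose level was the highest of the 6, the change was -2.44 and not called (edgeR adjusted p = 0.081), and it was -0.91, -0.10, -0.45, -0.04 and -0.17 without LPS replicate 1, 2 or 3 or LPS + CA replicate 1 or 3. Limma-voom with quality weights gave -1.89 (adjusted p = 0.06). The other 4 interferon ligand genes listed did not pass the filter on low counts. Of 16 tested genes of interferon production, receptors and their kinases and factors, 6 were lower and 0 higher (median log2 -0.15), and 3 without LPS replicate 2 or without LPS + CA replicate 2. Ikbke, which encodes a kinase that activates IRF3 and IRF7, read 476, 482 and 441 CPM with LPS and 358, 358 and 389 CPM with LPS + CA (-0.34, SE 0.05, edgeR adjusted p = 4.09e-05). Jak2, a cytokine receptor kinase gene, read 441, 435 and 424 CPM and 364, 358 and 369.5 CPM (-0.25, SE 0.04). Both genes were separated between the groups without overlap.

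Cytokine genes were lower in part. Of 32 tested members 9 were lower and 1 higher (median log2 -0.26), and without LPS + CA replicate 2 the counts were 11 and 1. All 5 tested members of the interleukin 1 family were called, 4 lower and 1 higher. Il1a, which encodes interleukin 1 alpha (ENSMUSG00000027399, chromosome 2, 129299609 to 129310186), stood at 64.0, 58.2 and 45.4 CPM with LPS and 27.9, 34.2 and 34.5 CPM with LPS + CA, a log2 change of -0.79 (SE 0.12, edgeR adjusted p = 0.000328). Its highest caffeic acid library was below its lowest LPS library. Il1b, the interleukin 1 beta gene, was at 874, 846 and 597 CPM and 389, 536 and 516 CPM (-0.69, SE 0.15, edgeR adjusted p = 0.0128). The groups did not overlap, but LPS replicate 3 was much closer to the caffeic acid libraries than its fellows were, and the Il1b call was lost without LPS replicate 1 or 2 (edgeR adjusted p = 0.064 and 0.0662). Il1f9, the gene of interleukin 36 gamma and the 1 member called higher, read 56.2, 56.1 and 56.4 CPM with LPS and 74.7, 71.7 and 62.9 CPM with LPS + CA (0.31, SE 0.07). Il27, which encodes a subunit of interleukin 27, fell by 0.76 (SE 0.17) from a mean of 5.18 ± 0.760 CPM, Tnfsf15, a TNF family ligand gene, by 0.75 (SE 0.13) and Inhba, which encodes the activin A subunit, by 0.45 (SE 0.08).

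Tnf, Il6 and Il10 were not called by edgeR in the model of all 18 libraries. Tnf, the tumour necrosis factor gene, read 1029.5, 1091 and 786 CPM with LPS and 683, 1039 and 1079.9 CPM with LPS + CA. One library of each group was low, LPS replicate 3 and LPS + CA replicate 1, the groups overlapped, and the log2 change was -0.05 with a 95% interval of -0.44 to 0.34, which like all intervals here is not adjusted for the number of genes. Il6 read 118, 127 and 94.0 CPM and 89.6, 105 and 88.0 CPM (-0.26, interval -0.46 to -0.07, edgeR adjusted p = 0.11) and Il10, whose product restrains inflammation, 6.13, 5.75 and 5.55 CPM and 5.85, 5.18 and 3.38 CPM (-0.26, interval -0.57 to 0.05). The groups overlapped for both genes. Il6 was called lower by DESeq2 (adjusted p = 0.0408), by limma-voom with quality weights (0.0129), and by edgeR with a replicate block (0.0479), with no filter (0.000574) and without LPS replicate 3 (0.00153). The lower bounds of the intervals for Tnf, Il6 and Il10 lie above the change of -0.69 estimated for Il1b. That estimate has an error of its own, and the difference between genes was not tested, so no difference between them is shown. Among 24 tested cytokine receptor genes 5 were lower and 0 higher, and 3 were lower without LPS replicate 1 or 2. Without LPS + CA replicate 2, 4 were lower and 1 higher. Il23r, a subunit gene of the interleukin 23 receptor with no count in control, was among the 10 largest decreases, at 4.25, 4.92 and 2.32 CPM with LPS and 1.62, 1.40 and 1.34 CPM with LPS + CA (-1.39, SE 0.28, edgeR adjusted p = 0.00175). Its 3 LPS libraries were spread widely and all lay above the caffeic acid libraries, which the rule for naming the largest changes required.

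Chemokine genes showed decreases among CC members and the interferon-induced CXC members. Of 20 tested members 8 were lower and 1 higher (median log2 -0.49), and 8 were lower without LPS + CA replicate 2. Ccl7, a monocyte attractant gene (ENSMUSG00000035373, chromosome 11, 82045712 to 82047525), stood at 53.4, 57.0 and 41.5 CPM with LPS and 19.6, 28.6 and 24.0 CPM with LPS + CA, against 6.00 ± 0.623 CPM in control. It fell by a log2 of 1.07 (SE 0.15, edgeR adjusted p = 0.000287), with every caffeic acid library below every LPS library. Its neighbours on chromosome 11 that attract the same cells moved the same way. Ccl2 read 479, 509.5 and 372 CPM and 230.3, 311 and 308 CPM (-0.68, SE 0.13), and Ccl12 read 20.4, 20.9 and 17.4 CPM and 12.5, 12.1 and 11.9 CPM (-0.69, SE 0.11). Both were without overlap between the groups. Cxcl10 and Cxcl11 encode ligands of the receptor CXCR3 that interferon induces. Cxcl10 stood at 374, 442 and 341 CPM with LPS and 242, 239.7 and 277 CPM with LPS + CA (-0.61, SE 0.12, edgeR adjusted p = 0.00746), and Cxcl11 at 30.2, 38.4 and 29.1 CPM and 21.7, 19.8 and 20.2 CPM (-0.66, SE 0.11). LPS replicate 2 was again the highest library for both. Ccl22, a T cell attractant gene, fell by 0.53 (SE 0.08).

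The neutrophil attractant Cxcl3, which had no count in control, was the 1 chemokine gene called higher, at 53.3, 54.1 and 64.2 CPM with LPS and 80.5, 82.5 and 68.6 CPM with LPS + CA (0.43, SE 0.10). Its groups did not overlap, and edgeR's adjusted p of 0.00752 became 0.051, 0.0508 and 0.0794 without LPS replicate 1, LPS replicate 2 or LPS + CA replicate 2. Its close relative Cxcl2 had a log2 change of 0.15 and was not called (edgeR adjusted p = 0.0809). Of 8 tested chemokine receptor genes 3 were lower and 1 higher, the last being Cxcr4 (0.56, SE 0.14), whose edgeR adjusted p was 0.107 and 0.102 without LPS replicate 1 or 2 and 0.0829 and 0.0952 without LPS + CA replicate 1 or 2. Ccrl2, an atypical receptor gene, fell by 0.40 (SE 0.07), and Cx3cr1, the fractalkine receptor gene, by 0.36 (SE 0.07).

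**Figure D3:**
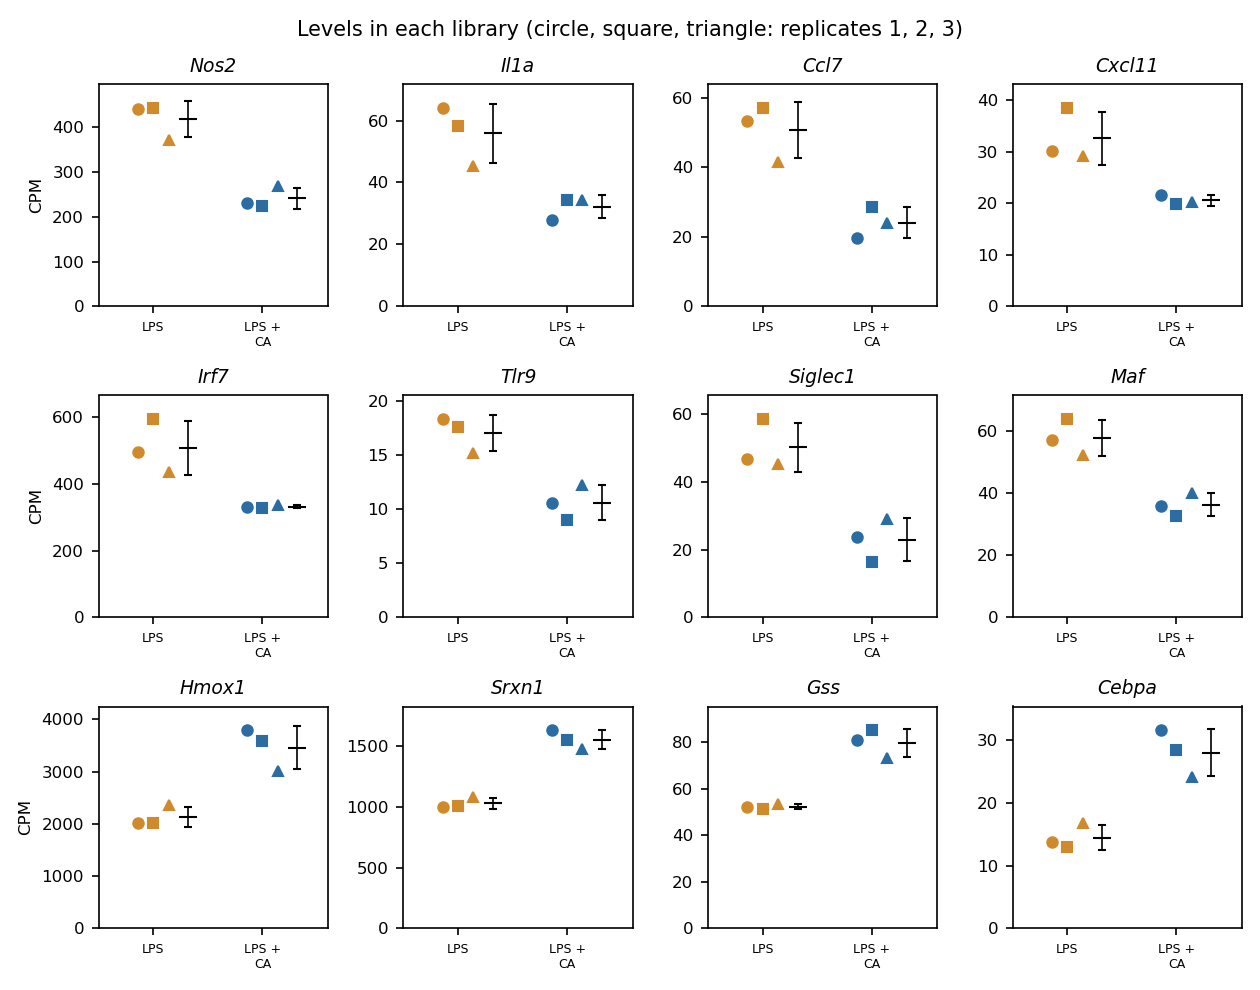
Levels (CPM, axes from 0) of 12 genes in the 3 LPS libraries (orange) and the 3 LPS + CA libraries (blue), with circle, square and triangle for replicates 1, 2 and 3 and a bar for the mean ± SD. For all 12 genes the groups do not overlap; Nos2 through Maf are lower with caffeic acid, and Hmox1, Srxn1, Gss and Cebpa are higher.

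Of 28 tested genes of inflammatory enzymes 4 were lower and 4 higher, with a median log2 of -0.03, and without LPS + CA replicate 2 the counts were 5 and 1. Nos2, which encodes inducible nitric oxide synthase, stood at 441, 442 and 372 CPM with LPS and 232, 224 and 269 CPM with LPS + CA (-0.79, SE 0.12, edgeR adjusted p = 0.00124). LPS replicate 3 was the lowest of its group and still well above the highest caffeic acid library. Slc7a2, the gene of an arginine transporter that supplies the enzyme, read 1411, 1352 and 1423 CPM and 1229.6, 939.5 and 1116 CPM (-0.35, SE 0.06), with LPS + CA replicate 2 the lowest. Acod1, which makes itaconate, read 2250.3, 2388 and 2103 CPM and 1959, 1789 and 1903 CPM (-0.25, SE 0.04), and Kynu, of tryptophan breakdown, fell by 0.72 (SE 0.16; edgeR adjusted p = 0.0558 without LPS replicate 1). Among 14 prostaglandin and leukotriene genes 3 were higher and 0 lower, and without LPS + CA replicate 2 the counts were 1 and 1. Ptgs2, which encodes cyclooxygenase 2, read 2328, 2165 and 2105 CPM with LPS and 2211, 2253 and 2417 CPM with LPS + CA, overlapping, with a log2 change of 0.06 and a 95% interval of -0.04 to 0.16. Ptgs1, which encodes the constitutive cyclooxygenase and falls with LPS in these data, read 96.3, 97.9 and 103 CPM and 121, 121 and 115 CPM and rose by 0.26 (SE 0.05) to a level still below the 303 ± 7.75 CPM of control. Spr, Alox5ap and Pla2g4a were the other genes called higher, each losing its call without LPS replicate 2 or without LPS + CA replicate 2, and the higher count was 1 without LPS replicate 2 or LPS + CA replicate 2 and 2 without LPS + CA replicate 1.

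Genes of the NF-kB system had small changes. Of 28 tested members 8 were lower and 0 higher (median log2 -0.16), and 27 had a change below 0. That count was 3 and 2 without LPS replicate 1 or 2, and 4 without LPS + CA replicate 1 or 2. Nfkb1, which encodes the p105 and p50 subunit, read 895, 892 and 843 CPM with LPS and 728, 704 and 756 CPM with LPS + CA (-0.27, SE 0.04, edgeR adjusted p = 0.000154), without overlap. Marcksl1, a substrate gene of protein kinase C, read 1111, 1203 and 1013 CPM and 800.2, 857 and 784 CPM (-0.45, SE 0.06) and was among the 10 genes with the smallest p. Of 20 genes of LPS sensing 5 were lower and 1 higher (median log2 -0.06), with 3 lower without LPS replicate 2 and the higher call, Ikbkg, lost without LPS replicate 1 or 2 or LPS + CA replicate 1. Tlr4, the receptor gene itself, read 70.1, 68.4 and 68.5 CPM with LPS and 69.4, 60.9 and 77.2 CPM with LPS + CA, with LPS + CA replicates 2 and 3 at the ends of the range. Its log2 change was 0.00 with a 95% interval of -0.13 to 0.13. The adaptor gene Myd88 fell by 0.24 (SE 0.05) and the kinase gene Irak2 by 0.31 (SE 0.05).

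Of the nucleic acid receptor genes of the endosome, Tlr7, Tlr8 and Tlr9 fell, while Tlr13, chosen here after its value was seen, had a log2 change of 0.15 (SE 0.05) and was not called by edgeR (adjusted p = 0.0649). Tlr9, a receptor gene for unmethylated DNA, stood at 18.3, 17.6 and 15.2 CPM with LPS and 10.6, 9.01 and 12.3 CPM with LPS + CA (-0.69, SE 0.11, edgeR adjusted p = 0.000128). Tlr7 and Tlr8, receptor genes for single-stranded RNA that lie side by side on chromosome X, read 147, 164 and 146 CPM and 107, 92.2 and 116 CPM for Tlr7 (-0.54, SE 0.07) and 39.1, 42.7 and 33.3 CPM and 24.5, 17.3 and 24.1 CPM for Tlr8 (-0.81, SE 0.13). In all 3 genes LPS + CA replicate 2 was the lowest library and no library overlapped with the other group. All 3 genes were also lower with LPS alone than in control, where Tlr9 read 29.6, 33.4 and 32.6 CPM, Tlr7 191, 192 and 186 CPM and Tlr8 136, 133 and 124 CPM. Tlr2, a lipopeptide receptor gene that LPS raised, fell by 0.27 (SE 0.04). Tlr3, an endosomal receptor gene counted here with the interferon-stimulated genes, was also called lower (log2 -0.56). In the whole list of pattern receptors and inflammasome genes 8 of 21 were lower and 0 higher, 4 lower without LPS replicate 2, and 6 lower and 1 higher without LPS + CA replicate 2, the higher call being Tlr13 (edgeR adjusted p = 0.0258). Without LPS + CA replicate 3 the counts were 8 and 1.

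Secreted acute-phase and antimicrobial genes were lower in part, with 5 of 12 tested members called lower and 0 higher (median log2 -0.34). The count was also 5 without LPS + CA replicate 2. Saa3, a serum amyloid gene, read 1416, 1466 and 1310.4 CPM with LPS and 964, 1123 and 887 CPM with LPS + CA (-0.49, SE 0.07, edgeR adjusted p = 0.000157). C3, the central complement gene, read 1399.7, 1420.5 and 1289.9 CPM and 1008, 845 and 1101 CPM (-0.48, SE 0.08), and Lcn2, which encodes an iron-siderophore binding protein, read 169, 179.8 and 169 CPM and 135, 132 and 129 CPM (-0.38, SE 0.05). The metalloproteinase genes Mmp13 and Mmp9 fell by 0.30 (SE 0.05) and 0.26 (SE 0.05). None of the 5 genes overlapped between the groups.

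**Figure D4:**
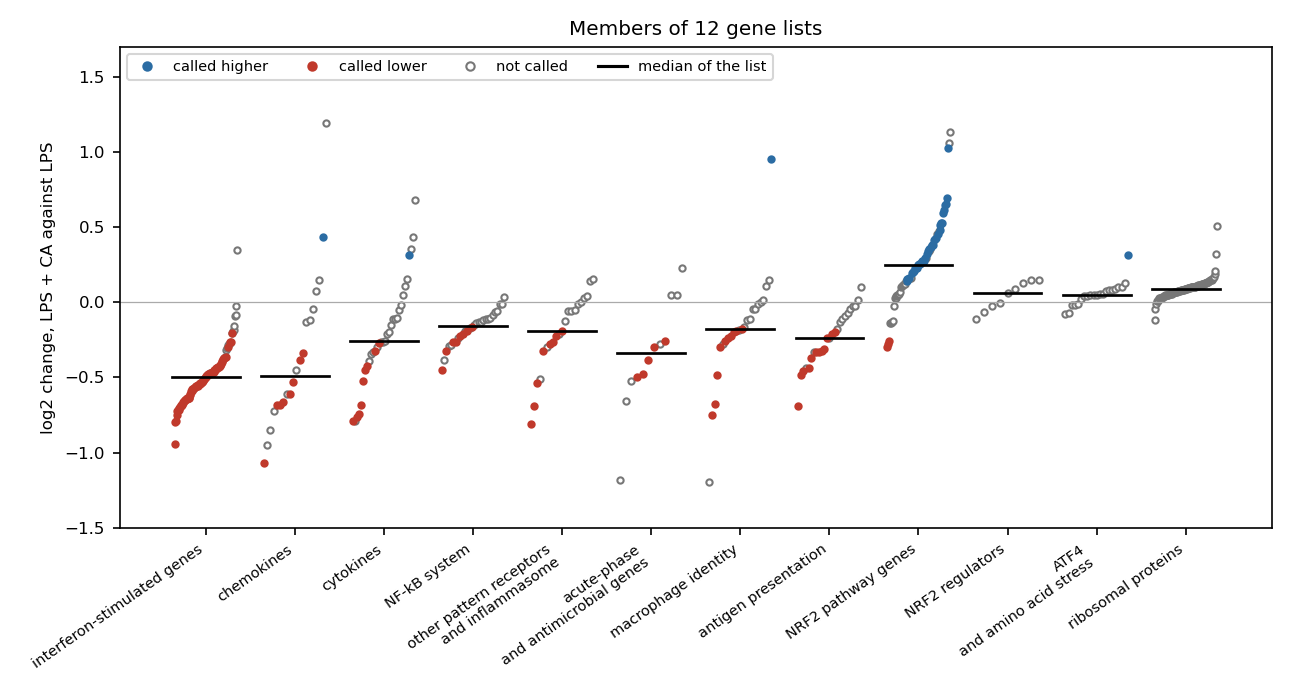
Log2 change of every tested member of 12 gene lists, LPS + CA against LPS (edgeR, model of all 18 libraries). Filled points are called higher (blue) or lower (red), open points are not called, and bars are list medians. Medians run from -0.50 for interferon-stimulated genes to 0.25 for NRF2 pathway genes, with NRF2 regulators, ATF4 genes and ribosomal proteins near 0.

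NRF2 pathway genes were higher together. Of 69 tested members 36 were called higher and 3 lower, with a median log2 change of 0.25 beside 0.01 for all tested genes, and 61 had a change above 0. Without LPS + CA replicate 2, in which these genes stood somewhat higher than in its fellows, 33 were higher and 4 lower, 30 of the 33 being called higher in both fits. In a model of only these 6 libraries 23 were higher. By role, genes called higher made up 5 of 9 in glutathione synthesis and cystine import, 4 of 9 in the thioredoxin and peroxiredoxin systems, 11 of 25 in quinone and electrophile detoxification, 5 of 6 in NADPH supply, 6 of 9 in heme, ferritin and iron, 1 of 5 transporters and 4 of 6 regulators and feedback genes. In the same order, the counts without LPS + CA replicate 2 were 5, 4, 7, 4, 6, 3 and 4. Of the 75 genes listed 6 were not tested.

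In glutathione synthesis, Gss, which encodes glutathione synthetase (ENSMUSG00000027610, chromosome 2, 155563181 to 155592810), stood at 52.2, 51.3 and 53.2 CPM with LPS and 80.9, 85.1 and 73.3 CPM with LPS + CA. The LPS libraries agreed within 2 CPM and every caffeic acid library was far above them. The log2 change was 0.61 (SE 0.06, edgeR adjusted p = 1.03e-06). Gclm, the modifier subunit gene of the enzyme before it, read 1427, 1443 and 1565 CPM and 2145, 1996 and 1942 CPM (0.46, SE 0.06, edgeR adjusted p = 2.11e-05), and the catalytic subunit gene Gclc rose by 0.42 (SE 0.07). Slc7a11, the cystine importer gene, read 796, 703 and 811 CPM with LPS and 1066, 802 and 971 CPM with LPS + CA. LPS + CA replicate 2 fell within the LPS range, and the log2 change of 0.30 (interval 0.11 to 0.49) was not called by edgeR at an adjusted p of 0.0538, but was without that replicate (edgeR adjusted p = 0.00913).

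In the thiol peroxidase system, Prdx6, a peroxiredoxin gene (ENSMUSG00000026701, chromosome 1, 161240112 to 161251210), had the smallest p of all tested genes. It read 225, 225 and 227 CPM with LPS and 319, 354 and 306 CPM with LPS + CA (0.53, SE 0.05, edgeR adjusted p = 6.14e-07). Srxn1, which encodes the sulfiredoxin that repairs peroxiredoxins, read 999, 1006 and 1079.8 CPM and 1629.8, 1553 and 1478 CPM (0.60, SE 0.06, edgeR adjusted p = 2.52e-06). The LPS libraries were close together for both, and without LPS + CA replicate 2 the changes were 0.47 and 0.60. Prdx1 rose by 0.48 (SE 0.08).

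Among detoxifying enzymes, Nqo1, the quinone reductase gene, stood at 27.7, 30.3 and 32.9 CPM with LPS and 46.4, 41.1 and 42.7 CPM with LPS + CA (0.52, SE 0.09, edgeR adjusted p = 0.000333). Ptgr1, which reduces reactive aldehydes and prostaglandins, read 123, 117 and 127 CPM and 192, 215 and 169 CPM (0.65, SE 0.08), and Gsta3, a glutathione transferase gene, 15.1, 16.4 and 18.8 CPM and 25.1, 28.1 and 25.2 CPM (0.65, SE 0.10). None of these 3 overlapped between the groups. Gsta2 had the largest increase among called members of the list, at 2.10, 2.35 and 1.29 CPM and 3.71, 4.44 and 3.49 CPM (1.03, SE 0.24, edgeR adjusted p = 0.0053). Its copy Gsta1 is close in sequence, so reads may be split between them. Gsta1 read 0.552, 0.615 and 1.08 CPM and 1.86, 1.93 and 1.13 CPM and was not called (edgeR adjusted p = 0.0513). Adh7, an alcohol dehydrogenase gene outside the list that had one of the 10 smallest p, read 96.9, 90.1 and 102 CPM with LPS and 152, 148 and 147 CPM with LPS + CA (0.63, SE 0.07, edgeR adjusted p = 2.52e-06), without overlap.

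Of the heme and iron genes, Hmox1, which encodes heme oxygenase 1, stood at 2017, 2024 and 2358 CPM with LPS and 3792, 3578 and 3003 CPM with LPS + CA (0.70, SE 0.13, edgeR adjusted p = 0.00477). LPS replicate 3 was the highest of its group and LPS + CA replicate 3 the lowest of its own, and the groups did not overlap. Fth1, the ferritin heavy chain gene, read 16800.3, 17544 and 17263 CPM and 17751, 21232 and 16669 CPM. Only LPS + CA replicate 2 was above the LPS libraries by a wide margin, and the log2 change of 0.11 (interval -0.01 to 0.23) was not called. The 3 members called lower were Gpx1, Glrx and Blvra. Gpx1, which encodes a glutathione peroxidase, fell by 0.30 (SE 0.05), Glrx, a glutaredoxin gene, by 0.28 (SE 0.06) and Blvra, a biliverdin reductase gene, by 0.26 (SE 0.07). The Blvra call was lost without LPS replicate 2 (edgeR adjusted p = 0.0711), LPS replicate 3 (0.0651), LPS + CA replicate 1 (0.0652) or LPS + CA replicate 3 (0.0798).

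The genes of NRF2 and its inhibitor were not called by edgeR in the model of all 18 libraries. Nfe2l2, the NRF2 gene, read 367, 394 and 346 CPM with LPS and 323, 349 and 337 CPM with LPS + CA (-0.13, interval -0.23 to -0.04), and it was called lower by DESeq2 (adjusted p = 0.0408), by limma-voom with quality weights (0.00179), and by edgeR without LPS replicate 3 (0.0266) or LPS + CA replicate 2 (0.0182). Keap1 read 144, 147 and 134 CPM and 131, 129.5 and 134 CPM (-0.11, interval -0.22 to -0.01). Of 9 tested NRF2 partners, inhibitors and degradation factors 0 were called in either direction, while 2 had an unadjusted p under 0.05, DESeq2 called 0, and limma-voom with quality weights and edgeR without LPS + CA replicate 2 called 1. Outside the list, 3 of 13 other iron and metal genes were higher, among them the metallothionein gene Mt1, which read 274, 278 and 293 CPM with LPS and 341, 446 and 355 CPM with LPS + CA (0.44, SE 0.09), highest in LPS + CA replicate 2. Of 14 other antioxidant and oxidase genes 2 were higher and 2 lower, and without LPS + CA replicate 2 these counts were 2 and 4, while 1 was higher without LPS replicate 1 and 1 lower without LPS replicate 2. Cybb, which encodes the catalytic subunit of the phagocyte oxidase, fell by 0.24 (SE 0.05). Among 11 tested genes of catechol and xenobiotic metabolism 0 were called by edgeR, 1 had an unadjusted p under 0.05, and DESeq2 and limma-voom called 1 and 2. Ahr, the aryl hydrocarbon receptor gene, read 21.2, 17.9 and 19.7 CPM and 23.2, 17.4 and 21.0 CPM (0.06, interval -0.14 to 0.27).

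Genes of macrophage identity and of surface receptors were lower in part, and 1 transcription factor gene was higher. Of 24 identity genes 10 were lower and 1 higher (median log2 -0.18), and without LPS + CA replicate 2 the counts were 8 and 1. Maf (ENSMUSG00000055435, chromosome 8, 115703253 to 115706894), which encodes a factor of macrophage differentiation, stood at 56.9, 63.6 and 52.1 CPM with LPS and 35.9, 32.6 and 39.9 CPM with LPS + CA (-0.68, SE 0.12, edgeR adjusted p = 0.00213). Its groups were apart, with LPS + CA replicate 2 the lowest library. Cebpa, a factor of myeloid differentiation, was the member called higher, at 13.7, 12.9 and 16.8 CPM with LPS and 31.6, 28.4 and 24.0 CPM with LPS + CA (0.95, SE 0.14, edgeR adjusted p = 0.000128). Its caffeic acid libraries were also above the control mean of 15.4 ± 1.23 CPM. Adgre1, which encodes the F4/80 antigen, fell by 0.29 (SE 0.05) and Ptprc, the CD45 gene, by 0.23 (SE 0.04). Adgre1, Lyz2, Itgam and other members of this list are also among the summed macrophage markers given above, so the list and the sum are not separate readings. For the genes that were lower, lower expression per cell and fewer such cells cannot be told apart in bulk RNA.

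Among scavenger, Fc, sialic acid and lectin receptors 14 of 27 were lower and 0 higher (median log2 -0.24), also 14 without LPS + CA replicate 2 and 9 without LPS replicate 2. Siglec1, a sialic acid receptor gene of macrophages that interferon induces, stood at 46.8, 58.4 and 45.2 CPM with LPS and 23.6, 16.2 and 29.0 CPM with LPS + CA (-1.14, SE 0.19, edgeR adjusted p = 0.00204). LPS + CA replicate 2 was lowest and LPS replicate 2 highest. Marco, a scavenger receptor gene, read 387, 394 and 419.6 CPM and 300.0, 308 and 259 CPM (-0.47, SE 0.06, edgeR adjusted p = 1.41e-05). C5ar1, the receptor gene for complement fragment C5a, read 418, 446 and 409 CPM and 347, 319 and 322 CPM (-0.36, SE 0.04), and Fcgr4, an activating Fc receptor gene, fell by 0.69 (SE 0.11). Marco and C5ar1 were among the 10 smallest p, with Igsf6, an immunoglobulin superfamily gene (-0.41, SE 0.05), Smpdl3b, a lipid phosphodiesterase gene that damps TLR signalling (-0.34, SE 0.04), and St8sia4, a polysialic acid transferase gene (-0.46, SE 0.06).

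For antigen presentation 12 of 25 tested genes were lower and 0 higher (median log2 -0.24). The count was 13 without LPS + CA replicate 2, 7 without LPS replicate 1 or LPS + CA replicate 3, 6 without LPS + CA replicate 1 and 5 without LPS replicate 2. Nlrc5, the transactivator gene of class I genes, stood at 121, 119 and 95.1 CPM with LPS and 70.3, 60.2 and 78.0 CPM with LPS + CA (-0.69, SE 0.11, edgeR adjusted p = 0.00106). The nonclassical class I genes H2-T22 and H2-T23, members of a family of similar sequence, fell by 0.48 (SE 0.08) and 0.44 (SE 0.07). The classical gene H2-D1 had a change of -0.07 and was not called (edgeR adjusted p = 0.477), and of 6 class II and costimulatory genes 1 was lower.

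In lipid genes, Ch25h, whose enzyme makes the antiviral oxysterol 25-hydroxycholesterol, read 2.48, 3.63 and 2.59 CPM with LPS and 1.05, 1.32 and 0.912 CPM with LPS + CA (-1.39, SE 0.28, edgeR adjusted p = 0.00159), without overlap and at low counts. Abca1, the cholesterol exporter gene, read 158, 145 and 137 CPM and 110.4, 73.0 and 114 CPM (-0.57, SE 0.14), lowest in LPS + CA replicate 2, and edgeR's adjusted p of 0.0203 became 0.0854 and 0.0651 without LPS replicate 1 or 2. Of all tested genes 5.42% were called lower and 2.3% higher. Of the 28 cholesterol and oxysterol genes 3 were lower, or 1 without LPS replicate 1 or 2. Synthesis and uptake held 1 of these calls in 20 genes. Ppard, which encodes a lipid-sensing nuclear receptor, rose by 0.43 (SE 0.07), and Acsl1, a fatty acyl-CoA synthetase gene, fell by 0.31 (SE 0.06). In the whole fatty acid list 4 of 19 were lower, or 2 without LPS replicate 2, LPS replicate 3 or LPS + CA replicate 2, and 1 was higher.

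Stress, growth and housekeeping lists held few calls, beside 2.3% of all tested genes called higher and 5.42% called lower. Among ATF4 and amino acid stress genes 1 of 21 was higher, the translation repressor gene Eif4ebp1 (0.32, SE 0.05), and among unfolded protein response and heat shock genes 1 of 25, with 1 to 2 in the former and 0 to 2 in the latter list over the 6 fits that leave out 1 library. Of 25 entries of glycolysis and hypoxia 2 were lower, Hif1a (-0.26, SE 0.06) and Pfkfb3. The 25 count Aldoa at both of its identifiers (log2 -0.69 and 0.13, neither called). The count of lower entries was 1 when any library except LPS + CA replicate 3 was left out. Of 69 cell cycle genes 2 were higher and 3 lower, or 0 higher and 1 lower without LPS replicate 2, 1 higher without LPS replicate 1 and 4 higher without LPS + CA replicate 3, against shares over all tested genes of 2.3% and 5.42%. The cell cycle inhibitor gene Cdkn1a read 366, 389 and 329.7 CPM with LPS and 329, 311 and 313 CPM with LPS + CA (-0.19, SE 0.05, edgeR adjusted p = 0.0255). The edgeR adjusted p for Cdkn1a was 0.103, 0.227 and 0.0804 without LPS replicate 1, LPS replicate 2 or LPS + CA replicate 2. Ccnd2, the cyclin D2 gene, fell by 0.69 (SE 0.14). The immediate early genes Nr4a1 and Fos fell by 0.75 (SE 0.14) and 0.62 (SE 0.11), in a list with 5 of 33 lower, or 2 without LPS replicate 1, LPS replicate 2 or LPS + CA replicate 2 and 3 without LPS + CA replicate 1. Of 27 proteasome genes 4 were higher, but 1 without LPS + CA replicate 2, LPS replicate 1 or LPS replicate 2, 2 without LPS replicate 3 and 10 without LPS + CA replicate 3. Of 82 ribosomal protein genes 0 were called by edgeR, DESeq2 or limma-voom and 8 had an unadjusted p under 0.05 (9.76%, against 19.5% of all tested genes). With no filter on low counts edgeR called 6 higher, and it called 3 higher without LPS + CA replicate 1 and 7 without LPS + CA replicate 3, with a median log2 of 0.09 that became -0.01 without LPS + CA replicate 2.

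Among the 10 largest increases outside these lists, Sstr5, a somatostatin receptor gene, read 2.81, 2.46 and 3.83 CPM with LPS and 6.81, 8.31 and 5.90 CPM with LPS + CA (1.21, SE 0.19, edgeR adjusted p = 0.000128). Opn3, a nonvisual opsin gene (ENSMUSG00000026525, chromosome 1, 175662421 to 175692901), read 36.7, 36.5 and 37.4 CPM and 68.2, 75.1 and 59.7 CPM (0.88, SE 0.10, edgeR adjusted p = 2.17e-05). The LPS libraries for Opn3 agreed within 1 CPM, and the lowest caffeic acid library, replicate 3, was far above them. Met, the hepatocyte growth factor receptor gene, rose by 0.83 (SE 0.17) and Dab2ip, which encodes a Ras GTPase-activating protein, by 0.82 (SE 0.14). Among the 10 largest decreases were Iqgap2, a scaffold protein gene (-1.02, SE 0.20), Serpina3g, a protease inhibitor gene of a family of close copies (-0.99, SE 0.20), Slc28a2, a nucleoside transporter gene with a near copy (-0.90, SE 0.17), and Gm6377, a predicted gene (-0.94, SE 0.14).

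Markers of other cell types were scarce. Of 10 neutrophil and mast cell markers 7 were at 0 in all LPS libraries and 6 in all LPS + CA libraries, and the list summed to 8.77 to 12 CPM with LPS and 12.5 to 16.4 CPM with LPS + CA. Of the 3 members of this list that were tested 2 were called higher, S100a8 (log2 0.49) and Ly6g, beside 2.3% of all tested genes. Camp (-0.28) was not called. The higher count was 1 without LPS + CA replicate 2 and 0 without LPS replicate 2. Ly6g read 0.662, 0.503 and 0.916 CPM and 1.90, 2.10 and 1.66 CPM (1.44, SE 0.34), with an edgeR adjusted p of 0.0594 without LPS replicate 2. Elane and Mpo, which define granulocyte precursors, were among the markers at 0 in every library. Of the lymphocyte markers Cd3d and Cd8a, which define T cells, were at 0, and the list had sums of 0.447 to 0.662 CPM and 0.123 to 0.590 CPM. Fibroblast markers summed to 5.01 to 5.58 CPM with LPS and 3.54 to 4.18 CPM with LPS + CA, and dendritic cell markers to 3.70 to 5.17 CPM and 4.04 to 5.26 CPM.

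The caffeic acid libraries were also compared directly with those of its relatives at the same dose and time, to show where caffeic acid differed. Chlorogenic acid is the ester of caffeic acid with quinic acid, and CACys carries a cysteine joined to caffeic acid. Both comparisons share the LPS + CA libraries with each other and with the comparison above. LPS + CGA against LPS + CA called 183 genes (1.38%), 84 higher (0.634%) and 99 lower (0.747%) with chlorogenic acid. NRF2 pathway genes were lower with chlorogenic acid than with caffeic acid for 19 of 69 members and higher for 0 (median log2 -0.18), while of 95 interferon-stimulated genes edgeR called 0 (median log2 0.14), with 20 at an unadjusted p under 0.05 (21.1%, against 17.6% of all tested genes). DESeq2 called 3 of them and limma-voom 0, and edgeR called 12 with no filter on low counts, 2 without LPS + CA replicate 3 and 1 with a replicate block, all higher with chlorogenic acid. Gss read 60.1, 55.1 and 59.0 CPM with LPS + CGA, below all 3 caffeic acid libraries (log2 -0.46, SE 0.06, edgeR adjusted p = 0.00017). Prdx6 read 258, 236 and 257 CPM (-0.38, SE 0.05), Adh7 117, 115 and 112 CPM (-0.38, SE 0.07) and Opn3 45.4, 43.1 and 42.9 CPM (-0.63, SE 0.10). Marco, at 413, 393 and 379 CPM, was higher with chlorogenic acid (0.45, SE 0.06). For Irf7 the difference was 0.19 with a 95% interval of -0.03 to 0.41, for Nos2 0.46 (0.19 to 0.72) and for Hmox1 -0.41 (-0.69 to -0.13). None of these was called by edgeR, at adjusted p-values of 0.36, 0.0878 and 0.14, and the missed calls do not show that the compounds act alike on them. The count of 183 depended on single libraries, being 448, 87 and 1063 without LPS + CA replicate 1, 2 or 3, 87, 45 and 57 without LPS + CGA replicate 1, 2 or 3, and 3 in a model of only those 6 libraries. The NRF2 count was 9 without LPS + CA replicate 2, 31 without LPS + CA replicate 3, 11, 7 and 8 without LPS + CGA replicate 1, 2 or 3, and 0 in a model of only those libraries. The calls for Gss, Prdx6, Adh7, Opn3 and Marco held whichever of the 6 libraries was dropped, and in the model of only those libraries Adh7 and Opn3 kept theirs. Other genes named in this report and called in this comparison were mixed. Ptgr1 and Gsta3 kept the call in all 6 fits with 1 library dropped, Gclm and Gclc in 3 and Cebpa in 1.

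Against the cysteine adduct the differences were wider. LPS + CACys against LPS + CA called 3589 genes (27.1%), 2011 higher (15.2%) and 1578 lower (11.9%) with the adduct. Of 95 interferon-stimulated genes 91 were higher with the adduct and 0 lower (median log2 0.85), and of 69 NRF2 pathway genes 50 were lower and 3 higher (median log2 -0.33). Without LPS + CA replicate 2 these counts were 90, and 44 lower and 4 higher. Irf7 read 711, 748 and 624 CPM with LPS + CACys, above all caffeic acid libraries and all LPS libraries (log2 1.06 against caffeic acid, SE 0.10, edgeR adjusted p = 2.07e-06). Srxn1 read 895, 922 and 1096 CPM, below all caffeic acid libraries (-0.68, SE 0.06, edgeR adjusted p = 6.32e-09). Hmox1, at 2401, 2665 and 3448 CPM, overlapped with caffeic acid and was not called (-0.28, SE 0.13, edgeR adjusted p = 0.129). Ribosomal protein genes were lower with the adduct for 36 of 82 members, and the count was 12 without LPS + CA replicate 2, 12 without LPS + CACys replicate 1, 54 without LPS + CA replicate 1, 61 without LPS + CA replicate 3, 61 with no filter, 18 with limma-voom and 5 in a model of only those libraries.

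**Figure D5:**
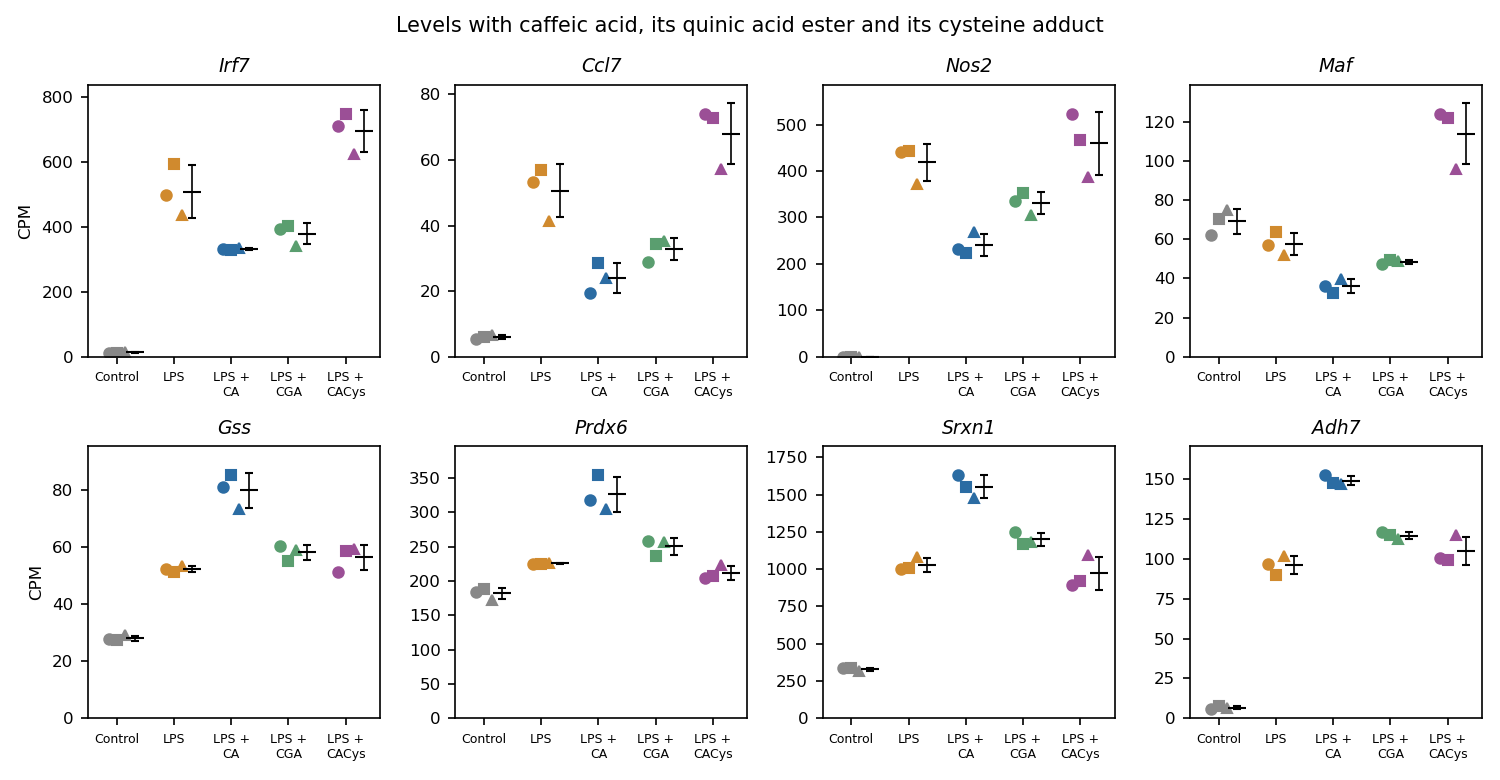
Levels (CPM, axes from 0) of 8 genes in control, LPS, LPS + CA, LPS + CGA and LPS + CACys libraries, 3 each, with circle, square and triangle for replicates 1, 2 and 3 and a bar for the mean ± SD. Gss, Prdx6, Srxn1 and Adh7 are highest with caffeic acid, and Irf7, Ccl7, Nos2 and Maf are lower in all caffeic acid libraries than in all LPS and CACys libraries.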

How the data were processed

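RNA of RAW264.7 cells was sequenced in 18 libraries. The authors deposited 1 table of raw read counts per gene for 54532 genes, 26742 of them at 0 in all 18 libraries. HISAT, DESeq2 and the mm10 build are named per the submitters' processing notes. The counting program, strand setting and annotation are not given in the sources used here, so overlapping and antisense genes, and close copies such as Ifit3 and Ifit3b or Tgtp1 and Tgtp2, may share reads. Gene positions come from RefSeq's GRCm38.p6 gene table, matched by symbol, the assembly that mm10 is made from; 12620 of the 13251 tested genes matched and 631 did not.

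Genes with enough counts by edgeR's filterByExpr entered 1 quasi-likelihood model (R 4.3.3, edgeR 4.0.16) of all 6 groups, scaled by trimmed mean of M values factors, with Benjamini-Hochberg adjustment over the 13251 genes and a threshold of 0.05. Using all groups shares the estimate of spread, with a biological coefficient of variation of 5.68% between replicates. CPM values carry the same scaling. Library totals over the series ran from 16105817 to 25624935 counts. Alternatives were RLE and upper-quartile factors, other filters, a replicate block, only the groups compared, DESeq2 1.42.0, limma-voom with quality weights (limma 3.58.1), removal of ribosomal protein genes, and each library left out. The test was checked on simulated data with 1 spread per gene for all libraries. No simulated library was made to stand apart as LPS + CA replicate 2 did.

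Named genes are the 10 largest rises and 10 largest falls among called genes averaging 50 counts or more and without overlap, the 10 smallest p, up to 6 called members per list and direction, and 24 fixed genes; uncalled members account for lists. The groups, the 36 gene lists and these genes were chosen with earlier results of these data known. For the 10 largest rises and 10 largest falls, separation of the groups was a condition of naming and is no separate result. Not all genes that met the rule are reported here.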

Additional observations from a re-analysis of the deposited data

How the results depend on the processing

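Over 16 other settings, 75 of the 101 called genes named here kept their call in each, and 0 of them changed direction. Uncalled genes near 0 changed sign: Tlr4 was -0.005 with RLE factors, -0.005 with DESeq2, -0.000 when only the compared groups were modelled and -0.080 to 0.086 with a library left out, Tnf ran from -0.183 to 0.129 and Ahr from -0.037 to 0.175 with a library left out, and limma-voom with quality weights gave -0.366 for Tnf. The cause of these shifts was not tested.

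A model fitted to the compared groups alone, with fewer libraries to estimate spread from, called 434 genes for LPS + CA against LPS, 23 NRF2 pathway genes higher, 3 genes for LPS + CGA against LPS + CA and 2145 for LPS + CACys against LPS + CA. Chosen after seeing the data, that model without LPS + CA replicate 2 called 616 genes, 34 interferon-stimulated genes lower and 5 chemokine genes lower; Hmox1, Irf7, Il1a, Ccl2 and Cxcl10 then lost their calls. Limma-voom with quality weights called 1696 genes for LPS + CA against LPS and 577 for LPS + CGA against LPS + CA, where DESeq2 called 437 and the test with no filter on low counts 614. Leaving out 1 library gave 541 to 1439 genes for LPS + CA against LPS, 51 to 84 interferon-stimulated genes lower, 30 to 39 NRF2 pathway genes higher, 8 to 9 chemokine genes lower, 45 to 1063 genes for LPS + CGA against LPS + CA and 2747 to 3977 for LPS + CACys against LPS + CA. The counts for LPS against control stayed within 7980 to 8861.

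The labels do not say whether replicate numbers pair the libraries. Between LPS and LPS + CA, correlations of same-numbered deviations from the group means were -0.014, 0.075 and -0.027. Differently numbered libraries gave -0.049 to 0.066. With 3 libraries in each group these values cannot show whether the replicates were paired. A replicate block called 1006 genes for LPS + CA against LPS, 81 interferon-stimulated genes lower, 37 NRF2 pathway genes higher and 8 chemokine genes lower. At 1 or fewer CPM, Ifnb1 had an interval too wide to give a direction.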
